A study of Mus musculus with 8 samples.

Results

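Neutrophil granule and recruitment genes were examined in mouse liver as a set of 10 genes: the cytosolic calcium-binding proteins S100a8 and S100a9, the primary granule proteins Mpo, Elane and Prtn3, the secondary granule proteins Ngp, Camp and Ltf, and the surface proteins Csf3r and Cd177. The genes were given by name, and their probes were found by matching the gene name printed on the array, with older names accepted, so that Elane was found as Ela2. All 10 were among the 19505 gene names on the array, with 11 of its 41174 probes, since Ltf had 2 probes. RNA came from whole liver of male wild-type mice, C57BL/6 by the labels and C57BL/6J by the study's methods, aged 14 to 17 weeks at the start, which were fed standard chow (STD, n = 4) or an atherogenic diet (ATH, n = 4) for 4 weeks. The ATH diet is rich in fat and cholesterol and also contains cholic acid, a bile acid, and no group received fat and cholesterol without it. Each mouse was hybridised to 1 single-colour Agilent Whole Mouse Genome array, named here by diet and replicate number (STD1 to STD4 and ATH1 to ATH4). The comparison asks how the liver transcriptome differs between the diets.

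Neutrophils are short-lived white blood cells that are made in bone marrow and enter inflamed tissue from the blood. They make most of their granule proteins as precursors in the marrow: primary (azurophilic) granule proteins at the promyelocyte stage and secondary (specific) granule proteins at the myelocyte stage, so that mature cells carry the proteins with little of their mRNA. S100a8 and S100a9, which together form calprotectin, are still abundantly transcribed in mature neutrophils and also in monocytes, while Csf3r, the receptor of the growth factor G-CSF, is expressed throughout the lineage.

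The probes of 5 members show what the array read. A probe is a 60-base oligonucleotide, given 5′ to 3′ in the sense of the transcript and in the mouse build mm7 of the array's annotation. The S100a8 probe lay at chr3:90800058-90800117, and the S100a9 probe lay 22748 bases away on the same chromosome, at chr3:90822865-90822924. Camp was read at chr9:109544107-109544166, and the probe of Elane, which had no signal above background, lay at chr10:79668034-79668093. Ltf was read at chr9:110738071-110738130 by one probe and across 3051 bases of genome, chr9:110733462-110736512, by the other, so the latter spans at least 1 intron. No letters are in capitals because no part of a probe is marked.
S100a8: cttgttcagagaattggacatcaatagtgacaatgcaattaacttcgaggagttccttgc
Camp: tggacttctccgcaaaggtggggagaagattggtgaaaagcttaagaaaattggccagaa
Elane: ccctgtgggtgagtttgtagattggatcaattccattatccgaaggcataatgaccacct
Ltf (A_52_P15388): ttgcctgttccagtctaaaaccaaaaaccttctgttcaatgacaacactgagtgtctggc
Ltf (A_51_P188141): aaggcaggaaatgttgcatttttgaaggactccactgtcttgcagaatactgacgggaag

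Signals are given as scaled log2 signal, which is log2 of the background-subtracted spot brightness minus the 75th percentile of its own array, so that 0 is that percentile and 1 unit is a doubling. A level of one probe says nothing against the level of another probe, since probes differ in how they bind. A probe was tested when 3 or more arrays of one diet detected it, meaning that its spot was positive, significant and well above background and was not marked as an outlier. This held for 31056 probes, among them 10 probes of 9 members, and not for Elane. Between 72.3% and 77.8% of spots per array were well above background, and the mean level of 8 hepatocyte markers ranged from 6.95 to 7.12 on STD and from 6.49 to 6.90 on ATH, so the tissue carried the transcripts of liver. All STD arrays lay on one slide and all ATH arrays on another, and any difference below is one of slide as well as of diet: the effects cannot be told apart. In whole tissue, fewer cells of a type and less RNA per cell cannot be told apart either.

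S100a8 and S100a9 had the largest differences of the set, with means 3.81-fold and 3.33-fold higher on ATH, but neither passed the test over all probes. None of the 9 tested members had a limma adjusted p under 0.01, a threshold that 0.528% of all probes passed (0.193% higher and 0.335% lower on ATH), and none had one under 0.05, which 8% of all probes passed (3.06% higher and 4.94% lower). At an unadjusted p under 0.05 in limma there were 2 of 9, S100a8 and S100a9, against 28.4% of all probes, and the methods' test with unequal variances also gave 0 after adjustment and 2 before. That test was rerun here, and its counts are not those of the study. No member had 4 ATH arrays that were all above or all below the 4 STD arrays, whereas 19.9% of all probes did (6.01% with ATH higher). By mean, 8 of 9 members were higher on ATH against 32.9% of all probes, and the median log2 difference was 0.43 against -0.15 over all probes. Counted as genes by the brightest probe, as the members are, 5776 of 16558 were higher, with a median of -0.14. Of these genes limma called 4.05% higher and 5.3% lower at 5%, and 7.59% had all ATH arrays higher and 14.6% all lower. With normexp background correction 5 of 9 were higher, without scaling between arrays all 9 were, and 8 of 9 lay above the median of all probes in both.

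**Figure D1:**
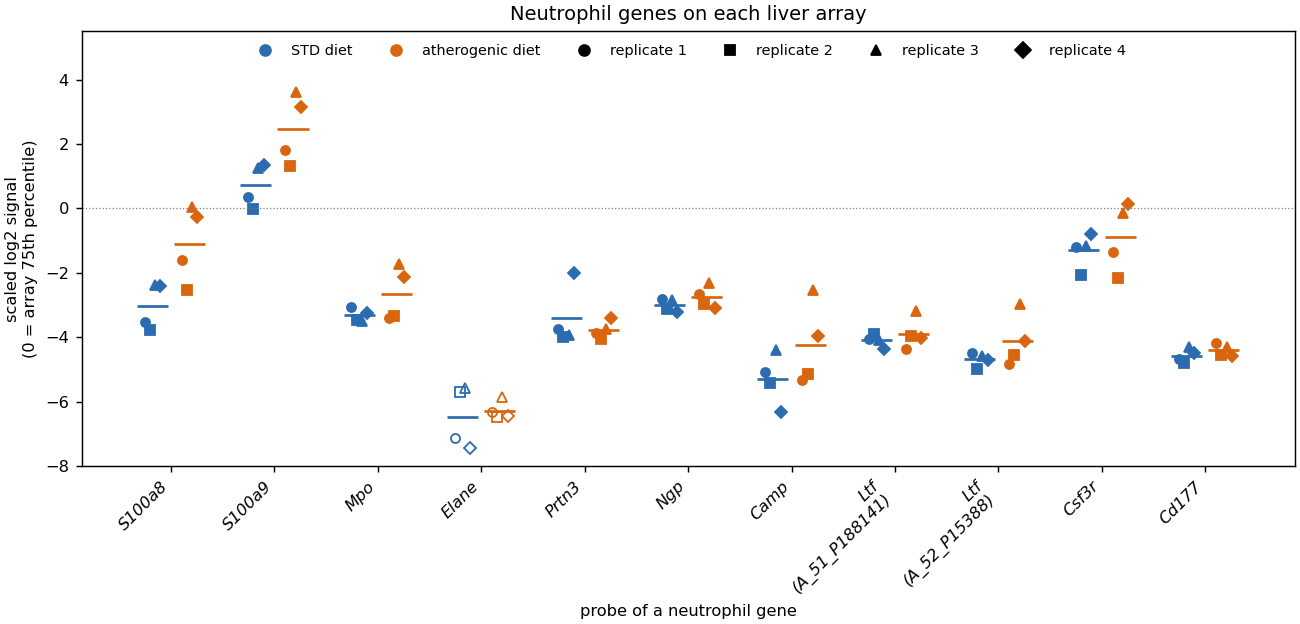
Scaled log2 signal (0 is the array's 75th percentile) of each probe of the 10 neutrophil genes on 8 liver arrays. Blue is STD and orange ATH, the marker shape gives the replicate, bars are means of 4 arrays, and open markers are the Elane probe, which was not detected. ATH3 and ATH4 sit above every STD array for S100a8 and S100a9, while ATH2 lies within the STD range for S100a8.

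S100a8 encodes the smaller subunit of calprotectin. Its scaled log2 signal was -3.54, -3.79, -2.37 and -2.40 on STD1 to STD4, and -1.60, -2.52, 0.029 and -0.28 on ATH1 to ATH4. Thus 3 of the 4 ATH arrays lay above the highest STD array, while ATH2 fell below STD3 and STD4. The mean was -3.02 ± 0.75 (SD, n = 4) on STD and -1.09 ± 1.19 (SD, n = 4) on ATH. The log2 difference was 1.93 (SE 0.58, 95% interval 0.61 to 3.25, limma adjusted p = 0.0733).

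S100a9, which neighbours S100a8, encodes the larger subunit. Its scaled log2 signal was 0.36, -0.032, 1.27 and 1.35 on STD1 to STD4, and 1.80, 1.30, 3.63 and 3.14 on ATH1 to ATH4. Again 3 of 4 ATH arrays lay above every STD array, and ATH2 lay just below STD4. The mean was 0.74 ± 0.68 (SD, n = 4) on STD and 2.47 ± 1.10 (SD, n = 4) on ATH, with a log2 difference of 1.73 (SE 0.54, 95% interval 0.51 to 2.95, limma adjusted p = 0.0787). The difference without ATH2 was 2.41 for S100a8 and 2.12 for S100a9 (limma adjusted p = 0.0195 and 0.0296), so for both genes the side of the 5% threshold turned on that array. Both also passed 5% with normexp background correction, where S100a8 differed by 1.19 (limma adjusted p = 0.0479), and without scaling between arrays, where it differed by 2.38 (limma adjusted p = 0.0318). Calls over all probes rose in these fits too. At 1%, limma called 164 probes by the main setting, 1054 without ATH2, 454 with normexp and 488 without scaling. At 5% the count rose from 2483 to 7364 without scaling.

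The values of both genes were also ordered by replicate number. Within each diet, replicates 3 and 4 were higher than replicates 1 and 2 for S100a8, S100a9 and Csf3r, which is 3 of 10 member probes against 7.18% of all tested probes (12.1% showed the opposite order), a pattern noticed after the values were seen. Arrays of the same number share a position on their slides, but whether the numbers pair the arrays is uncertain. The part of position in the spread was not tested. With the replicate number as a block in limma, the adjusted p was 0.0271 for S100a8 (SE 0.20) and 0.0301 for S100a9 (SE 0.20), so 2 members passed 5% in that fit, while over all probes it called 1322 in place of 2483.

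Both genes also followed each other closely from array to array. After the diet means were subtracted, S100a9 correlated with S100a8 at Pearson r = 0.99 over the 8 arrays, and of 16550 genes ranked by this measure Hps6 alone stood higher. Csf3r followed with r = 0.92, at place 189, and Mpo with r = 0.74. The remaining members had r of 0.61 (Camp), 0.47 (Prtn3), 0.42 (Cd177), 0.31 (Ltf) and 0.24 (Ngp). Among the genes outside the set with the highest r were Hps6, Micall2, Stat6 and Rtkn, each at 0.99, whose log2 differences between diets ran from -0.086 to 0.62. These correlations are a description over 8 arrays that share slides and positions.

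The promoters of S100a8, S100a9 and Csf3r are shown because these members varied together over the arrays. Each is the 250 bases before the gene's start from RefSeq on GRCm38.p6, a later build than the array's, and all 10 members were matched by symbol. Capitals mark matches on either strand to 2 motifs, GAGGAA, a short core bound by PU.1 (Spi1), and TTGCNNAA, a core bound by C/EBP factors, with N as any base. No match to one overlapped a match to the other. The regions were chr3:90668821-90669070 on the plus strand for S100a8, chr3:90695722-90695971 on the minus strand for S100a9 and chr4:126024409-126024658 on the plus strand for Csf3r.
S100a8: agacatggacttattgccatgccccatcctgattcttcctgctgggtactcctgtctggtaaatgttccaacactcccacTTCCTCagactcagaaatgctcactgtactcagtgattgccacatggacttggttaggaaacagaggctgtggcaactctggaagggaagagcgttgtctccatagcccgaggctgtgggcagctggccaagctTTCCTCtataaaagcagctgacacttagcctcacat
S100a9: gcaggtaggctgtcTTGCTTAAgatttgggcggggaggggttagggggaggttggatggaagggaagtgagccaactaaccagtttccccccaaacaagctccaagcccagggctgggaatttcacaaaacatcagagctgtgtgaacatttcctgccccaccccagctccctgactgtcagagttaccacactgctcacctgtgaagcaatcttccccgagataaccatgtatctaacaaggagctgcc
Csf3r: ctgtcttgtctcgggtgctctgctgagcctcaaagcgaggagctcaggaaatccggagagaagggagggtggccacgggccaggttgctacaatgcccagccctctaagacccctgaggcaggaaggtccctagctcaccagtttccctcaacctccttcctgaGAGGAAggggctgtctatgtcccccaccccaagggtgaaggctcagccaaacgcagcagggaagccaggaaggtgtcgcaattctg

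The S100a8 window held 2 PU.1 matches, both written as TTCCTC on this strand, and the Csf3r window held 1. The S100a9 window held 1 C/EBP match and none for PU.1. Over the set, 7 of 10 windows held GAGGAA against 23.3% of 32851 promoters of the same length, and 3 of 10 held TTGCNNAA (S100a9, Ngp and Ltf) against 9.56%. A match is a string of letters in a window and was not tested as a binding site.

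Primary granule genes gave no difference that passed the test. Mpo encodes myeloperoxidase, which makes hypochlorous acid. Its scaled log2 signal was -3.06, -3.46, -3.50 and -3.26 on STD1 to STD4, and -3.40, -3.33, -1.74 and -2.12 on ATH1 to ATH4. The first pair of ATH arrays thus lay inside the STD range and the second pair above it. The log2 difference was 0.67 (95% interval -0.16 to 1.51, limma adjusted p = 0.259), and it was 0.37 without ATH3 and 0.25 with normexp correction.

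Prtn3 encodes proteinase 3, a serine protease, and was the only tested member with a lower mean on ATH. Its scaled log2 signal was -3.74, -4.00, -3.92 and -2.01 on STD1 to STD4, and -3.87, -4.07, -3.75 and -3.41 on ATH1 to ATH4. STD4 alone stood far above the other 7 arrays. The log2 difference was -0.36 (95% interval -1.30 to 0.58, limma adjusted p = 0.599), and it was 0.11 without STD4. Relative to the median of all probes it was -0.21, with and without scaling between arrays.

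Elane encodes neutrophil elastase, and its gene neighbours Prtn3, with 6077 bases between their probes. The Elane probe was not well above background on any of the 8 arrays, with measured values between -7.44 and -5.58 on STD and between -6.48 and -5.87 on ATH, so no difference is given for it. The signal of Elane at this precision is a bound on both diets, not an absence of its mRNA.

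Secondary granule genes gave no difference past the threshold either, and all 4 of their probes were highest on ATH3. Camp encodes the cathelicidin antimicrobial peptide. Its scaled log2 signal was -5.07, -5.41, -4.39 and -6.32 on STD1 to STD4, where STD4 was not well above background, and -5.33, -5.15, -2.52 and -3.98 on ATH1 to ATH4. ATH3 and ATH4 lay above all STD arrays and ATH1 and ATH2 inside their range. The log2 difference was 1.05 (95% interval -0.38 to 2.49, limma adjusted p = 0.300), and it was 0.48 without ATH3 and 0.10 with normexp correction.

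Ltf encodes lactoferrin, an iron-binding protein, and its probes can be set side by side as repeated readings of one gene. The probe A_51_P188141 ranged from -4.37 to -3.91 on STD and from -4.37 to -3.20 on ATH, and A_52_P15388 from -4.98 to -4.48 and from -4.82 to -2.96. Both were highest on ATH3 and lowest among ATH arrays on ATH1. Their log2 differences were 0.22 and 0.58 (limma adjusted p = 0.578 and 0.316), and the first was -0.014 without ATH3. With normexp correction both turned negative, at -0.10 and -0.048.

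Ngp encodes neutrophilic granule protein, which resembles the cathelicidins. It ranged from -3.22 to -2.82 on STD and from -3.11 to -2.31 on ATH, with ranges that overlapped on 2 of 4 ATH arrays. The log2 difference was 0.24 (95% interval -0.20 to 0.68, limma adjusted p = 0.433), and it was -0.023 with normexp correction.

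**Figure D2:**
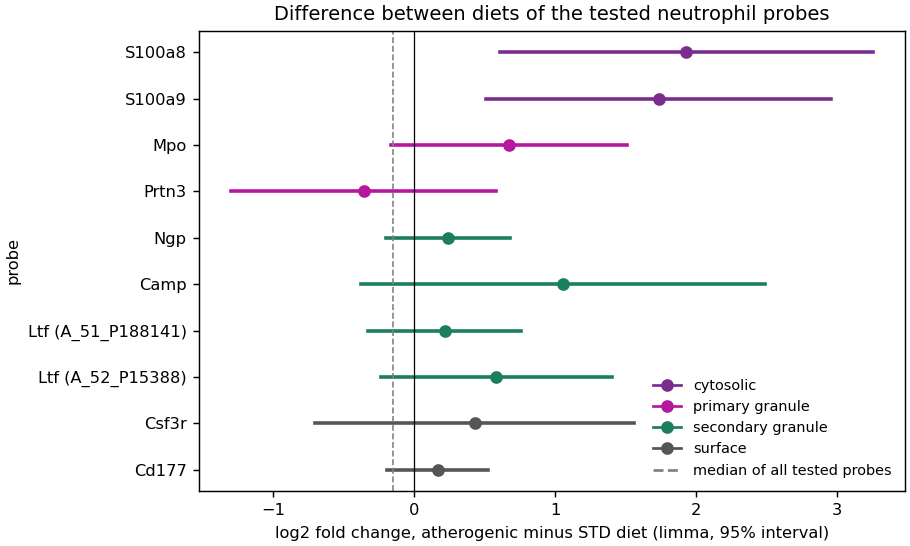
Log2 difference (ATH minus STD) of the 10 tested probes with its 95% limma interval, coloured by where the protein is found, and the median of all tested probes (-0.15) as a dashed line. The intervals of S100a8 (0.61 to 3.25) and S100a9 (0.51 to 2.95) lie above 0 and those of the other 8 probes include it.

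The surface genes showed no difference past the threshold. Csf3r was -1.19, -2.06, -1.16 and -0.81 on STD1 to STD4, and -1.34, -2.16, -0.15 and 0.15 on ATH1 to ATH4. ATH3 and ATH4 were above every STD array, and ATH2 was the lowest of all 8 arrays. The log2 difference was 0.43 (95% interval -0.70 to 1.56, limma adjusted p = 0.597). It moved with single arrays, to 0.18 without STD2, 0.86 without ATH2, 0.19 without ATH3 and 0.088 without ATH4. Cd177 encodes a surface glycoprotein that presents proteinase 3 on human neutrophils. It ranged from -4.80 to -4.31 on STD and from -4.59 to -4.17 on ATH, with a log2 difference of 0.17 (95% interval -0.19 to 0.52, limma adjusted p = 0.512), and it was -0.18 with normexp correction.

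Most members were unequally distributed over the ATH mice, with Cd177 and Prtn3 as exceptions, whose SD was smaller on ATH than on STD. ATH3 was the highest of all 8 arrays at 7 of 10 probes, and ATH4, ATH1 and STD4 at 1 each (Csf3r, Cd177 and Prtn3). Against the STD mean, the median member was -0.031 on ATH1 and 0.041 on ATH2, but 1.15 on ATH3 and 1.20 on ATH4, while the median of all probes was -0.085, -0.026, -0.21 and -0.25 on the same arrays. The SD among ATH mice exceeded that among STD mice at 8 of 10 probes, against 65.6% of all probes. The ATH SDs of S100a8, Camp and Csf3r were larger than those of 98.3%, 98.8% and 97.4% of all probes, and their STD SDs larger than those of 96.6%, 97.3% and 91.0%, so these probes varied widely on both diets. On ATH the SDs of Ngp, Prtn3 and Cd177 stood above those of 64.2%, 49.5% and 31.9% of all probes.

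**Figure D3:**
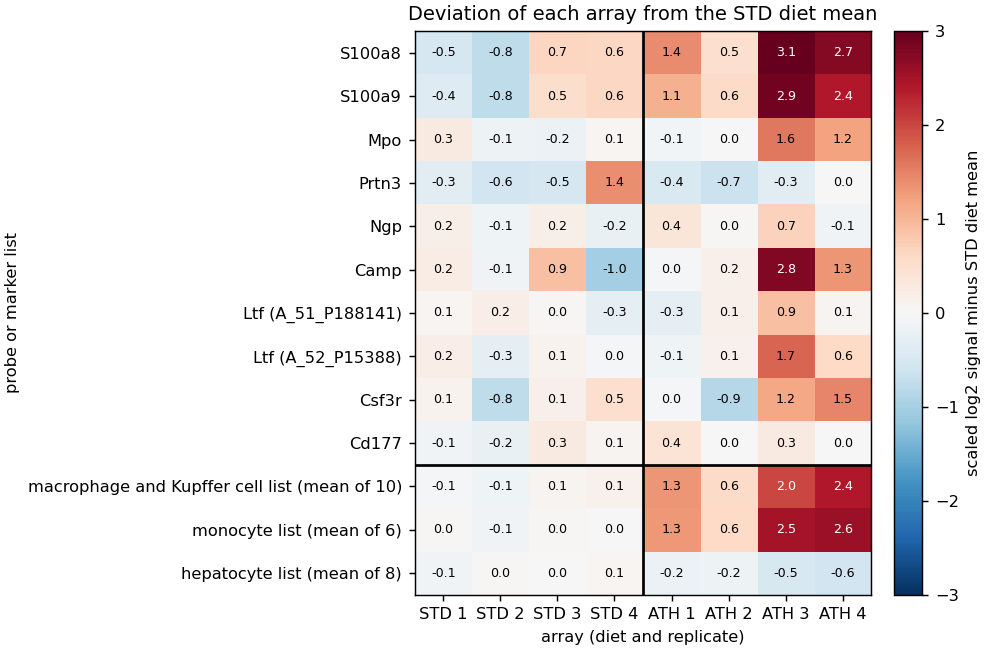
Scaled log2 signal minus the STD mean for each tested probe on each array (columns), with the mean over 3 marker lists of other cell types below the line. Red is above and blue below the STD mean. S100a8, S100a9, Mpo, Camp and Csf3r are highest on ATH3 and ATH4, as are the macrophage and monocyte lists, and the hepatocyte list is lowest there.

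Markers of other myeloid cells moved over the same arrays. The mean of 10 macrophage and Kupffer cell markers stood 1.33, 0.57, 2.01 and 2.40 above the STD mean on ATH1 to ATH4, and that of 6 monocyte markers 1.31, 0.61, 2.50 and 2.59. In levels, the macrophage list ranged from 2.15 to 2.41 on STD and from 2.85 to 4.69 on ATH, and the monocyte list from -1.92 to -1.78 and from -1.22 to 0.76, so the list means of the diets did not overlap. The mean of the 9 tested members ranged from -3.40 to -2.81 on STD and from -3.05 to -1.59 on ATH, which overlap. Of the macrophage and monocyte markers, 5 of 10 and 3 of 6 were called higher at 5% by limma, against 4.05% of 16558 genes. By mean, 10 of 10 and 5 of 6 were higher on ATH, against 5776 of 16558 genes. The monocyte marker Cx3cr1 was lower, with a log2 difference of -0.30. T and B cell markers had 0 of 6 called at 5% by limma (3 at an unadjusted p under 0.05, of which 2 were higher and 1 lower). Their mean stood at 0.26, -0.28, 1.28 and 1.14 on ATH1 to ATH4. The hepatocyte markers stood at -0.18, -0.16, -0.48 and -0.56, with 2 of 8 called lower, against 5.3% of all genes. The part of these cells in the neutrophil values was not tested.

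Ly6g, the defining surface marker of mouse neutrophils, had no probe under its name, and Cxcr2, the main neutrophil chemokine receptor, was lower on ATH by value at its brighter probe. Cxcr2 had 2 probes, both tested, and all values here are of the brighter. Cxcr2 ranged from -1.81 to -1.26 on STD and from -2.39 to -1.80 on ATH, with a log2 difference of -0.48 (limma adjusted p = 0.109). It was -0.41 with normexp correction (limma adjusted p = 0.0470), -0.17 with spike-in scaling and -0.037 without scaling. The ranges met at one array, ATH2, which lay just above STD2.

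Beside the members, 68 other genes of neutrophils and their recruitment were listed in 7 groups, of which 57 were tested by their brightest probe. These lists, like the members, were chosen with earlier results of these data known, so the shares beside them are a description and not a test. Of the 57 tested genes, 13 were called higher and 0 lower at 5% by limma, against 4.05% higher and 5.3% lower of 16558 genes. At an unadjusted p under 0.05 there were 34 higher and 4 lower, and the methods' test called 0 after adjustment. Without overlap between the diets there were 19 higher and 1 lower, against 7.59% and 14.6% of all genes. The median log2 difference was 1.19 against -0.14. The count of 13 higher depended on single arrays. It was 1, 3, 1 and 3 without STD1 to STD4, and 10, 29, 1 and 2 without ATH1 to ATH4. With the replicate block it was 4. In the fits without STD2, without ATH1 and without ATH2, 1 gene was called lower in each. With normexp correction 16 were called higher and 4 lower. By the probe of each gene with the lowest p, 15 were called higher. The count higher was also 34 without scaling and 22 with spike-in scaling, under which the median of all probes moved from -0.15 to 0.30 and 0.16.

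The other granule proteins, like the members, had 0 of 8 called at 5% by limma, with a median of 0.64 and 4 at an unadjusted p under 0.05. Chil3, a chitinase-like protein also made by macrophages, was 2.87 higher (limma adjusted p = 0.0575) and Pglyrp1, a peptidoglycan-binding protein, 0.75 higher (limma adjusted p = 0.111; 0.14 with normexp correction, and 1.20 with an adjusted p of 0.0355 without scaling). Lcn2, lipocalin 2, a siderophore-binding protein that hepatocytes also secrete in the acute phase, was -3.80, -3.22, -3.22 and 3.44 on STD1 to STD4 and between -0.35 and 2.87 on the ATH arrays. STD4 was thus above every ATH array for Lcn2. Its log2 difference was 3.20 (limma adjusted p = 0.202), and 4.92 without STD4 (limma adjusted p = 0.0172).

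Among 13 surface receptors, 3 were called higher, with a list median of 1.46. Itgb2, the beta chain of the leukocyte integrins, rose by 2.38 on the log2 scale, Selplg, the ligand of the selectins, by 1.89, and Fcgr4, a receptor for immunoglobulin G, by 1.89 (limma adjusted p = 0.0468, 0.0383 and 0.0205). In the list of 12 transcripts of mature neutrophils, 3 were called and the median was 0.87. Clec4e, a receptor of mycobacterial and damage-derived lipids, was -5.52 to -5.07 on STD and 0.0055, -3.89, 2.92 and 3.10 on ATH1 to ATH4, a rise of 5.90 (limma adjusted p = 0.0374), with 1 of 4 STD arrays well above background and a difference of 3.70 with normexp correction. Slfn4 was not well above background on any STD array and was at least 1.44-fold higher on ATH (limma adjusted p = 0.0166). Stfa2l1 was also called (limma adjusted p = 0.0347), but its ATH mean was below the detection bound of STD, so no fold is given. With normexp correction the differences of Slfn4 and Stfa2l1 were -0.00146 and -0.13.

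The phagocyte NADPH oxidase, which makes superoxide, had 3 of 6 subunits called higher and a median of 1.95, with all 6 higher by mean. Cybb, its catalytic subunit, rose by 2.28 and the GTPase Rac2 by 1.95 (limma adjusted p = 0.0349 and 0.0383). Cybb and Rac2, like Selplg above and Icam1 below, each had 1 other tested probe, whose values are not given here. Among 9 recruitment ligands and cytokines 3 were called, with a median of 1.40. Ccl3, a chemokine, rose by 3.19, the cytokine Tnf by 3.16 and the cytokine Il1b by 2.55 (limma adjusted p = 0.0253, 0.0412 and 0.0342). Ccl3 was well above background on 1 of 4 STD arrays and Tnf on 3, and with normexp correction their differences were 1.16 and 1.49. The chemokines Cxcl1 and Cxcl2, which act on Cxcr2, had log2 differences of 1.40 and 1.27 (limma adjusted p = 0.228 and 0.0794). Cxcl2 was well above background on 1 of 4 STD arrays, and its difference was 0.062 with normexp correction. Cxcl1 was 2.55 on STD3, above ATH1 and ATH2.

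Of 4 endothelial adhesion genes, Icam1, the counter-receptor of the leukocyte integrins, was called, with a rise of 2.03 (limma adjusted p = 0.0159), while the adhesion receptor Selp had a log2 difference of -0.48 (limma adjusted p = 0.112), which was -0.030 without scaling. None of 5 granulocyte progenitor factors was called at 5% by limma, with 1 higher and 1 lower at an unadjusted p under 0.05. Cebpa, which hepatocytes also express, had a log2 difference of -0.55 (limma adjusted p = 0.0510), which was -0.099 without scaling. Spi1, which encodes PU.1, had one of 1.19 (limma adjusted p = 0.153), which was 0.24 with normexp correction, and 2 of 4 STD arrays were well above background. Most of the 13 called genes, such as Itgb2, Cybb, Rac2, Fcgr4, Clec4e, Il1b, Tnf and Ccl3, are also expressed by monocytes and macrophages, whose marker lists rose on the same arrays. The part of any cell type in these differences was not tested.

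**Figure D4:**
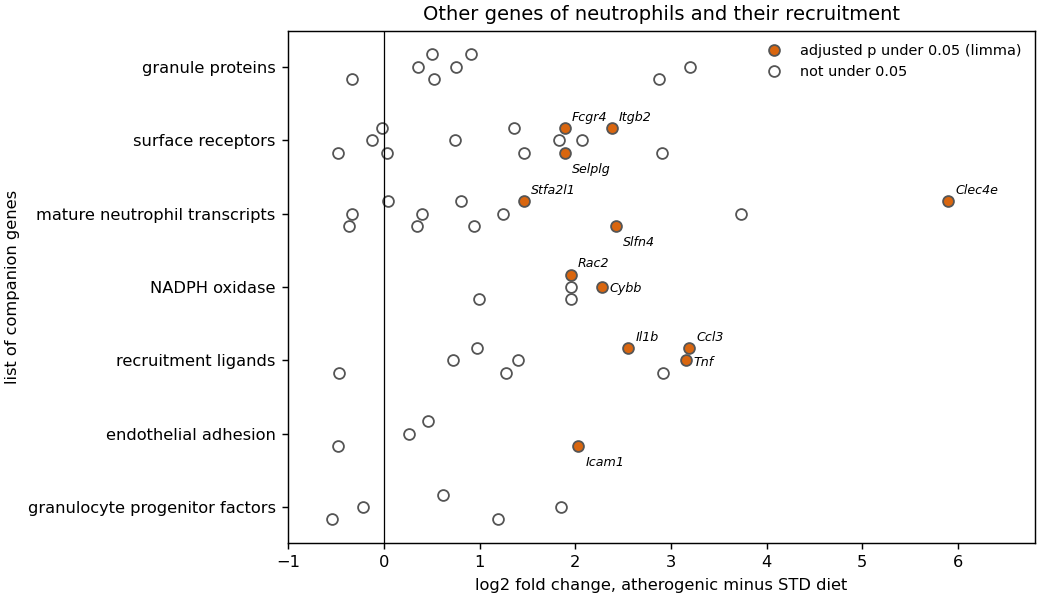
Log2 difference (ATH minus STD) of the tested companion genes, one point per gene, by list, with 1 gene that is not reported here left out. Filled points are named and have a limma adjusted p under 0.05, and none of them is in the lists of granule proteins or granulocyte progenitor factors.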

How the data were processed

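Liver RNA of 8 mice was read on 1 array each. The authors labelled it with Cy3 and read the scans with Agilent Feature Extraction version 9.5. The deposited array output holds the intensity of each spot, background-subtracted and detrended, and its detection flags (other values, 0 or 1, per the file headers). The authors also deposited log2 values from GeneSpring, of which 99.96% matched the array output, within 0.001, once each array and each probe was shifted by a constant. Their baseline is not given in the sources used here. The number of arrays limits the precision.

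Spots of a probe were averaged after outlier spots were left out, log2 was taken and each array was centred on the 75th percentile of its non-control probes. Of 41174 probes, 22951 were named by accession, 6659 by symbol and 3109 by synonym through RefSeq, and 8455 kept the array's name. A gene with several probes was counted by the brightest. Diets were compared over 31056 detected probes with limma 3.58.1 in R 4.3.3 (functions lmFit and eBayes, p-values two-sided and adjusted by Benjamini-Hochberg). Bounds set the mean of the bright diet against the lowest signal well above background. Summaries used Python 3.11.15, pandas 2.3.3, numpy 2.4.6, scipy 1.17.1 and matplotlib 3.10.9. The limma fit, the unequal-variance test and the block fit were tested on simulated data in which the arrays were independent. The other steps were not.

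The 10 members and the lists were chosen with earlier results of these data known. Named are all members, Ly6g, Cxcr2, Lcn2, Cxcl1 and Cxcl2, up to 4 called genes per list (the 2 with the lowest p where fewer than 2 were called) and the 5 genes most correlated with S100a8, and some genes so chosen are not reported here. Cell lists of erythroid (4 genes tested, 1 called lower), platelet (4, none) and eosinophil, basophil and mast cell markers (2, 1 called higher) were also made. Over all genes, limma at 5% called 4.05% higher and 5.3% lower. Same-numbered arrays correlated in their deviations from the diet means at 0.100, 0.230, 0.182 and 0.177, each over 0.1, so the replicate numbers were taken to pair the arrays. Number 1 only just passed 0.1, and ATH1 was more like STD2 than STD1. The pairing, and the fit with the replicate block that rests on it, is thus uncertain. Alternatives covered background correction (normexp, offset 50), scaling, filter, deposited values, the methods' test, the block, the choice of probe and each array left out.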

Additional observations from a re-analysis of the deposited data

Results flagged for a closer look

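In 5 of the 64 groups of 4 arrays examined, 1 array stood far from the other 3, and chance alone marks about 1 in 20 such groups. STD4 was the array in 4 of them. Prtn3 was -2.01 on STD4 against -4.00 to -3.74 on the other STD arrays. Lcn2 was 3.44 on STD4 against -3.80 to -3.22. Chil3 was -2.14 on STD4 against -3.32 to -3.21. Tnf was -5.36 on STD4, below the -4.75 to -4.63 of the others. Cxcl1 was 2.55 on STD3 against -0.36 to 0.10. Their causes were not tested.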

How the results depend on the processing

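Members called at 1% stayed at 0 in every alternative run. At 5% they were 0 by the main setting, 2 with normexp correction, 4 without scaling (Cd177, Ngp, S100a8 and S100a9) and 2 with the replicate block, and 0 to 2 with one array left out. Members without overlap were 1 with quantile normalization, 4 without scaling and 1 with spike-in scaling (S100a9 in each), and 0 to 2 with one array left out, where S100a9 was counted without STD4, and S100a8 and S100a9 without ATH2. The share of all probes without overlap is given for the main setting only, so these counts are not read as a result about the members. Without scaling, 80.8% of all probes were higher on ATH. Probes called at 1%, 164 by the main setting, were 454 with normexp, 488 without scaling, 84 with spike-in scaling, 37 without the detection filter, 252 over probes detected on all 8 arrays, 0 by the methods' test and 0 with the block, and 5 to 1054 with one array left out. The study itself lists probes changed at a false discovery rate of 1% by its unequal-variance test. The rerun of the methods' test here did not reproduce that list, and the reason was not tested. At 5% they were 2483, and 6394 with normexp, 7364 without scaling, 1086 without the filter, 22 by the methods' test, 1322 with the block and 416 to 4095 with one array left out. Of these calls 38.2% were higher on ATH, against 18.9% with normexp, 54.3% after quantile normalization, 86.5% when spike-ins set the scale and 94.9% without scaling. Companion genes called at 5%, 13 by the main setting, were 20 with normexp (16 higher and 4 lower), 34 without scaling, 22 with spike-in scaling, 4 without the filter, 0 by the methods' test, 4 with the replicate block, and 1 to 30 with one array left out.

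Relative to the median of all probes, the S100a8 difference was 2.08 by the main setting and without scaling, and 1.38 with normexp. Signs turned for Cd177 (-0.18), Ngp (-0.023), both Ltf probes (-0.10 and -0.048), Slfn4 (-0.00146) and Stfa2l1 (-0.13) with normexp, for the first Ltf probe without ATH3 (-0.014 to 0.38 over all arrays left out in turn), and for Prtn3 without STD4 (-0.55 to 0.11 over all arrays left out). Prtn3 was also 0.091 without scaling, a setting that shifts all probes alike, and -0.21 relative to the median of all probes in both settings. With the replicate block, S100a8 and S100a9 passed 5% (adjusted p = 0.0271 and 0.0301), while called companion genes such as Clec4e, Cybb, Fcgr4, Itgb2, Rac2, Selplg, Stfa2l1 and Tnf no longer did (0.0502 to 0.0646). The causes were not tested.

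With 4 arrays a diet, the widest 95% interval of a member, that of Camp, ran from -0.38 to 2.49. Elane is bounded only by background on both diets, and Slfn4 and Stfa2l1 on STD. Among other named genes, the STD arrays well above background were 1 of 4 for Ccl3, Clec4e and Cxcl2, 2 for Spi1 and 3 for Camp and Tnf, so their differences rest in part on signals near background.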
